A study of Mus musculus with 4 samples.

Results

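*Saa1*, *Saa3*, *Slpi*, *Lcn2*, *Serpina3n*, *Serpina3g* and *Spp1* were followed through the mesenchymal stromal cells (MSC) of the mouse small intestine and colon. They are 7 of the 28692 genes counted in all 4 libraries. The 7 genes were chosen on their measured values, namely their unique molecular identifiers (UMIs, each marking 1 captured RNA molecule) by intestine and cell class, so their levels by intestine and class are a description and carry no test. The mice were untreated C57BL6/Nrj females between 8 and 10 weeks of age, in 2 independent experiments with 3 mice in each, and the study states that mice of an experiment were pooled, so no value belongs to a single animal. Small intestine and colon each gave 2 single-cell libraries, numbered 1 and 2. The muscle layer and Peyer's patches had been removed, and the sort kept live cells with integrin β1 and without CD45, Ter119, CD31, BP3, EpCAM or L1CAM, that is, without blood, endothelial, lymphoid stromal, epithelial and glial cells. Cells were then assigned by marker genes, none of them among the 7, to PDGFRαhi fibroblasts (FB, found under the epithelium), CD81+ FB, PDGFRαlo FB, smooth muscle cells (SMC) and minor classes. The PDGFRαlo FB were split into a side with higher *Fgfr2*, *Adamdec1* and *Cxcl14* (Fgfr2 side) and a side with higher *Igfbp5* in both intestines and higher *Thy1*, which encodes CD90, in the colon (Igfbp5 and CD90 side).

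Acute-phase proteins are made in large amounts during inflammation, mostly by the liver and also by epithelium, macrophages and fibroblasts. *Saa1* and *Saa3* encode serum amyloid A, small lipid-binding proteins that carry retinol and bind bacterial surfaces. *Slpi* encodes secretory leukocyte protease inhibitor, a whey acidic protein (WAP) antiprotease of mucosal surfaces that blocks neutrophil elastase and has antibacterial activity. *Serpina3n* encodes a secreted serine protease inhibitor whose targets include granzyme B and neutrophil elastase, and *Serpina3g* encodes a relative that acts inside the cell on cathepsins. *Lcn2* encodes lipocalin-2, which withholds iron from bacteria by binding their siderophores. *Spp1* encodes osteopontin, a phosphorylated ligand of integrins and CD44. Many of these genes are switched on by interleukin-1, interleukin-6, tumour necrosis factor or interferon through C/EBP, NF-κB and STAT factors.

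In GENCODE vM21 (GRCm38) *Saa1* (chr7:46740497-46742980, minus strand) and *Saa3* (chr7:46711998-46715700, minus strand) lay in a single cluster with 27.3 kb between their starts. *Serpina3n* (chr12:104406729-104414329, plus strand) and *Serpina3g* (chr12:104236245-104241939, plus strand) also shared a cluster, the latter starting at -170.5 kb from the former. *Slpi* (chr2:164354070-164389095, minus strand), *Lcn2* (chr2:32384633-32388252, minus strand) and *Spp1* (chr5:104435118-104441050, plus strand) lay elsewhere. All 7 are protein coding. The longest *Saa1* transcript was 94.4% identical to that of *Saa2* over their alignment, and *Serpina3g* was 89.5% identical to *Serpina3f*, so how their reads were split is uncertain. *Spp1* overlaps the gene model Gm42793 on the same strand, and *Slpi* overlaps Mir7678.

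The 250 bases before the start are shown for *Slpi*, *Spp1* and *Saa1*, the members with most UMIs in colonic PDGFRαhi FB, and for *Saa3*, the neighbour of *Saa1* with another pattern. They come from RefSeq (GRCm38.p6) and are read 5′ to 3′ on the gene's strand, with motif matches in capitals. The coordinates are chr2:164356508-164356757 (minus strand) for *Slpi*, chr5:104434861-104435110 (plus strand) for *Spp1*, chr7:46742981-46743230 (minus strand) for *Saa1* and chr7:46715677-46715926 (minus strand) for *Saa3*. The window of *Slpi* lies inside the outermost limits of the gene in GENCODE, 32588 bases from the start of its longest model.
Slpi: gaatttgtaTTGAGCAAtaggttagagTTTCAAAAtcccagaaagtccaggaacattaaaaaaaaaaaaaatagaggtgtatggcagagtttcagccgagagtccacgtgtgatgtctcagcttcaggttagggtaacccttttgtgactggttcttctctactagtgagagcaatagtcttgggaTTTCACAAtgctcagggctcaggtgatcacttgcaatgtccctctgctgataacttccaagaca
Spp1: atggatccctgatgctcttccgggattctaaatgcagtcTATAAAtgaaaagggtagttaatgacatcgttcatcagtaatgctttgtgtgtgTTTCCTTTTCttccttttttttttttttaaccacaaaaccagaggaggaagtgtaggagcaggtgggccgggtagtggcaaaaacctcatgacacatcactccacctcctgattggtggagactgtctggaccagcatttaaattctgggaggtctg
Saa1: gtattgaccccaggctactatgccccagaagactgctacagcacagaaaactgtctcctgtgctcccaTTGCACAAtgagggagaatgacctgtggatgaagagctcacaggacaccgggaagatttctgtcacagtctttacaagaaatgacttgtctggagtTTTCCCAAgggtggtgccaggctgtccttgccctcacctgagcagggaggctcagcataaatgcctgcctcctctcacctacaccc
Saa3: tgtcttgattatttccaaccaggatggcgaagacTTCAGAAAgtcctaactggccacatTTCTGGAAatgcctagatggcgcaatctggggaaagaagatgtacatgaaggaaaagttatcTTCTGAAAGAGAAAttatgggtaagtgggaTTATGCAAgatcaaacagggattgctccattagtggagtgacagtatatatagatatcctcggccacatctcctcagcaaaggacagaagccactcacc
The capitals mark a C/EBP motif (TTNNGNAA), an interferon response motif (GAAA, any 2 bases, GAAA), both sought on both strands, and a TATA motif (TATAAA, plus strand). *Slpi* held 3 C/EBP matches, *Saa1* 2 and *Saa3* 4, and *Spp1* held 0. *Saa3* also held an interferon response match at positions -125 to -116 from the start, which overlapped a C/EBP match at -129 to -122 and is printed as 1 run of capitals. *Spp1* held an interferon response match at -157 to -148 and a TATA match at -211 to -206. Among 32851 RefSeq promoters cut to the same length, 36.8% held the C/EBP motif, 2.98% the interferon response motif and 7.59% the TATA motif. The STAT motif (TTCNNNGAA, both strands, in 7.02% of promoters), the AP-1 motif (TGANTCA, both strands, 6.75%) and the NF-κB motif (both strands, 7.25%) had no match in these 4. Of the promoters not shown, that of *Serpina3g* held 2 C/EBP, 1 STAT and 1 NF-κB match, that of *Serpina3n* 2 C/EBP matches and that of *Lcn2* 1. A match is a stretch of letters and not a shown binding site.

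The libraries held between 2061 and 16795 barcodes and between 14341443 and 52269372 UMIs, and 30697 cells were kept. The replicates differed in ways that touch the results below. Replicate 1 of both intestines held few, deep cells (median 6949.5 UMIs in small intestine and 8810 in colon), and replicate 2 many shallow cells (2734.5 and 3881). Despite the CD31 gate, endothelial cells made up 19.1% of kept cells in small intestine 1 and 9.60% in colon 1, but 0.0139% and 0.189% in the second replicates. Plasma cells made up 3.21% in small intestine 1 and at most 0.167% elsewhere. *Pdgfra* stood at 711 to 2272 CPM (the gene's UMIs per 1000000 UMIs of that library and class) in PDGFRαhi FB and at 128 to 252 in the other FB classes. Of all kept cells, 28.0% passed no class gate. At most 69 barcodes (0.510% of the smaller library) were shared by any pair of libraries.

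**Figure D1:**
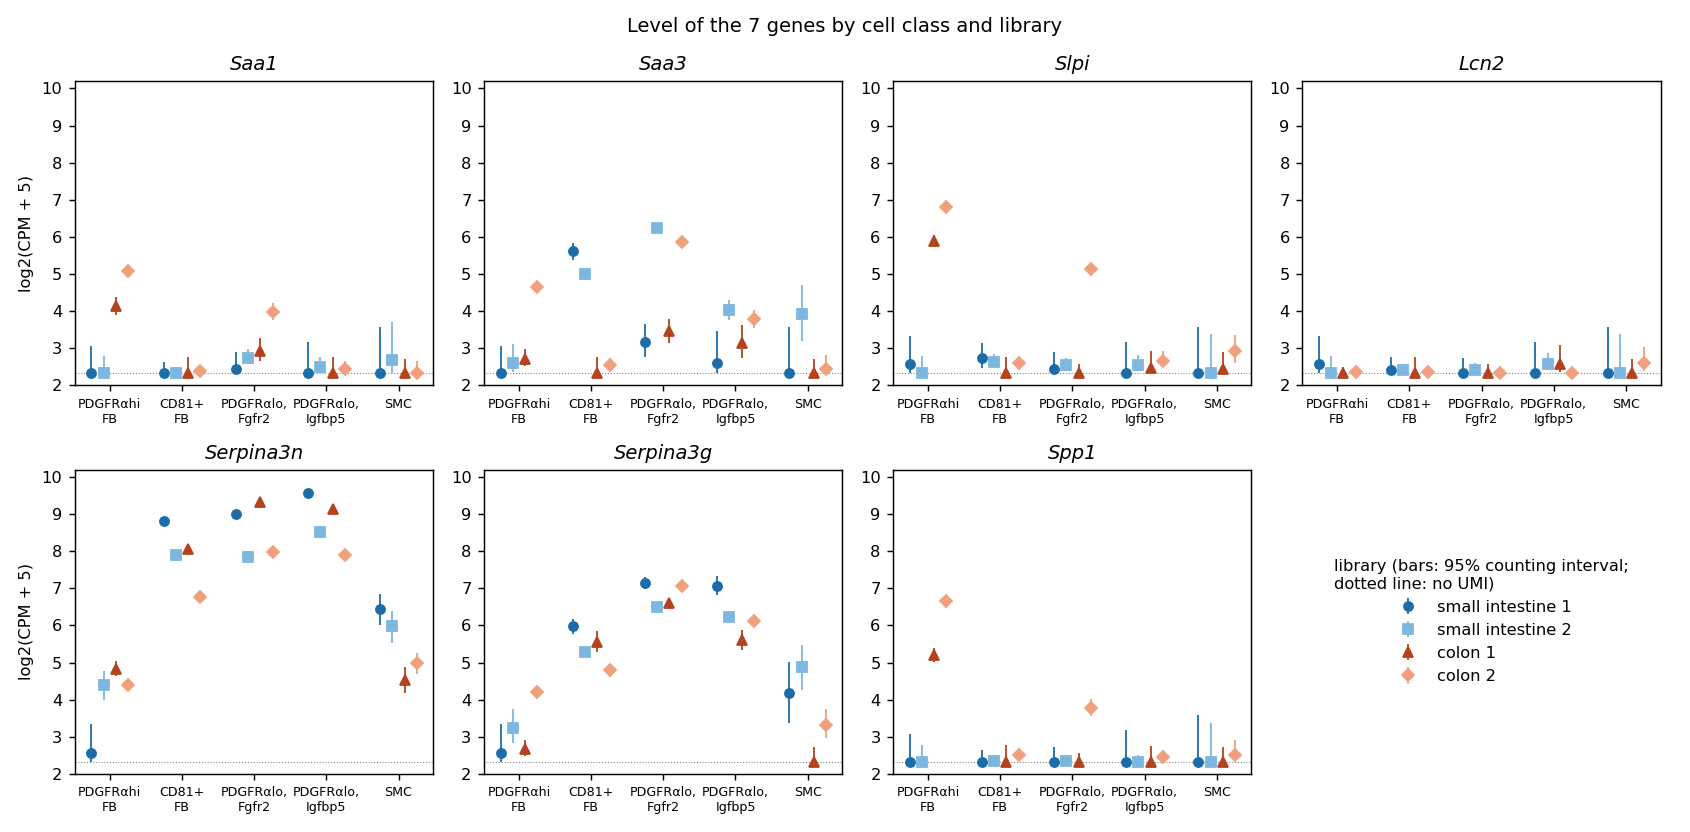
Level of each gene, as log2(CPM + 5), in 5 cell classes (x axis) and 4 libraries (colours and shapes), with bars for the 95% Poisson interval of the count. *Slpi*, *Spp1* and *Saa1* stood highest in the 2 colonic PDGFRαhi FB sums, *Serpina3n* and *Serpina3g* stood highest in CD81+ and PDGFRαlo FB, and *Lcn2* lay on the line of no UMI nearly throughout.

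Among the FB and SMC classes *Saa1* was highest in PDGFRαhi FB in both colonic libraries. It had 0 UMIs in PDGFRαhi FB of small intestine 1 and 0 in small intestine 2, against 77 UMIs (12.6 CPM, 95% Poisson interval 9.93 to 15.7) in colon 1 and 310 UMIs (28.6 CPM, 25.5 to 31.9) in colon 2. Both colonic sums lay above both small intestinal ones. The pooled colonic level (22.8 CPM, with most UMIs from colon 2) was at least 23.6-fold higher when the small intestine is set to a floor of 3 UMIs over the group. That bound does not hold for colon 1 alone. On the log2(CPM + 5) scale the colon was higher by 2.28 ± 0.66 (SD from the summed variances of both intestines, n = 2 libraries each). Intervals and floors here and below cover counting error only. A class level also cannot tell more positive cells from more RNA in each, so the shares of positive cells are given beside it.

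*Saa1* was found in few of these cells. In colon 1, 13 of 557 PDGFRαhi FB had a *Saa1* UMI (2.33%, exact 95% binomial interval 1.25 to 3.96) and in colon 2 it was 66 of 2601 (2.54%, 1.97 to 3.22). With each cell thinned to 1000 UMIs, which left out no cell, the shares were 0.539% and 0.961%. The richest cell held 61 UMIs in colon 1 and 39 in colon 2, so the level came from a small, rich set of cells. In CD81+ FB, 0 of 256 cells in colon 1 (a share of up to 1.17%, since the limit given here and below for a count of 0 is 3 counts of the total) and 2 of 2222 (0.0900%) in colon 2 had a *Saa1* UMI, at median depths of 7978 and 3992.5 UMIs against 10589 and 3956 in PDGFRαhi FB. The Fgfr2 side followed at 0.440 and 1.69 CPM in small intestine and 2.61 and 10.7 CPM in colon, where the intestines did not overlap (5.35-fold, 3.11 to 9.77) and colon 2 held 75 of the 86 UMIs. When cells took their class from their cluster instead of their own markers, these levels were 0.248 and 2.44 CPM against 1.78 and 4.57 CPM, and the intestines overlapped.

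*Saa3* reached its highest levels in small intestinal CD81+ FB and in the second replicates of the Fgfr2 side. In CD81+ FB it stood at 43.8 CPM (137 UMIs) in small intestine 1, 26.6 CPM (268 UMIs) in small intestine 2, 0 in colon 1 and 0.790 CPM (7 UMIs) in colon 2. Both small intestinal sums lay above both colonic ones (47.8-fold, 23.0 to 120), and on the log2(CPM + 5) scale the colon was lower, at -2.87 ± 0.47. Here too few cells carried the counts. Of the CD81+ FB, 4 of 360 in small intestine 1 (1.11%) and 33 of 3291 in small intestine 2 (1.00%) had a *Saa3* UMI, against 0 of 256 and 3 of 2222 (0.135%) in the colon. After thinning, the small intestinal shares were 0.833% and 0.668% and that of colon 2 stayed at 0.135%. The positive cells of small intestine 1 held 34.25 UMIs each, and 1 of them held 68. In the same CD81+ sums the 3 markers of lymphoid tissue stroma stood at 373 and 278 CPM in small intestine and 119 and 28.9 CPM in colon, with *Madcam1* at 0 in all but colon 2. The chemokine *Cxcl13* alone made up the sum of colon 1. In small intestine 1 it stood at 371 CPM in the CD81+ FB without *Saa3*. The part of these markers in the *Saa3* difference was not tested.

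In the Fgfr2 side *Saa3* stood at 3.96 CPM in small intestine 1, 71.0 in small intestine 2, 5.94 in colon 1 and 52.8 in colon 2. Replicate 2 was high and replicate 1 low in both intestines, and the intestines overlapped. With the class taken from the cluster the levels were 22.1, 132, 4.04 and 29.5 CPM in the same order, again with overlap. The cells without a class gate held 547 of the 1517 *Saa3* UMIs of small intestine 2. In PDGFRαhi FB the direction was that of *Saa1*, with 0 and 0.996 CPM in small intestine and 1.47 and 19.9 CPM in colon (20.6-fold, 5.63 to 171), and colon 2 carried nearly all of the difference. With the class taken from the cluster the levels were 0 and 1.66 CPM against 1.43 and 36.0 CPM, so the intestines overlapped, and PDGFRαhi FB then had the highest *Saa3* level of colon 2. The neighbours *Saa2* and *Saa4* had at most 12 UMIs and 2 UMIs over the FB and SMC of any library. A word count of the transcripts also bears on these values: 14.8% of the 50-base words of *Saa1* occur in another gene, mostly *Saa2*, and 3.91% of those of *Saa3*. Over the last 500 bases these shares were 7.32% and 12.4%.

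Cells with and without a *Saa3* UMI were compared within the Fgfr2 side, where 115 cells of small intestine 2 and 32 of colon 2 were positive. *Cxcl9*, an interferon-induced chemokine, stood at 896 CPM in the positive cells against 97.1 CPM in the rest in small intestine 2, and at 406 against 90.0 CPM in colon 2. *Cxcl10*, also induced by interferon, did not go the same way in both, at 1086 against 1351 CPM in small intestine 2 and 3082 against 1952 CPM in colon 2. *Serpina3g* was higher in the positive cells, at 181 against 81.2 CPM and 295 against 124 CPM. *Serpina3n* was lower in them, at 184 against 227 CPM and 167 against 249 CPM. *Saa1* stood at 14.0 against 1.18 CPM in small intestine 2 and 211 against 5.44 CPM in colon 2. These levels rested on 5 UMIs in 4.35% of the positive cells and on 38 UMIs in 12.5% of them. *Saa3* cells of the CD81+ class in small intestine 2 had more *Serpina3n* (453 against 232 CPM) and more *Cxcl5*, a neutrophil chemokine (115 against 15.8 CPM, on 14 UMIs). These are cells of 1 library each and the companion genes were picked after their values were seen, so the contrasts are descriptions.

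The antiprotease *Slpi* had the largest count of the 7 genes in colonic PDGFRαhi FB. It stood at 0.913 CPM (1 UMI) in small intestine 1, 0 in small intestine 2, 54.6 CPM (334 UMIs) in colon 1 and 106 CPM (1146 UMIs) in colon 2. Both colonic sums lay far above both small intestinal ones, with a pooled ratio of 271 whose interval runs from 48.5 to 10697 because it rests on 1 small intestinal UMI. On the log2(CPM + 5) scale the colon was higher by 3.90 ± 0.65. Colonic PDGFRαhi FB held 96.3% of all *Slpi* UMIs of colon 1 and 72.8% of those of colon 2.

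*Slpi* positive cells were a small share of colonic PDGFRαhi FB, alike in both libraries. A UMI was found in 29 of 557 cells in colon 1 (5.21%, 3.51 to 7.39) and 132 of 2601 in colon 2 (5.08%, 4.26 to 5.99), against 1 of 118 (0.847%) and 0 of 872 (up to 0.344%) in small intestine. Thinning gave 1.80% and 2.85% in the colon and 0 in both small intestinal libraries. In CD81+ FB, of similar depth, the shares were 0 of 256 (up to 1.17%) in colon 1 and 0.360% in colon 2. Each positive PDGFRαhi cell held 11.5 *Slpi* UMIs in colon 1 and 8.68 in colon 2, and the richest 1% of the cells held 73.7% and 67.5% of the gene's UMIs. Colon 2 also showed *Slpi* at 29.8 CPM on the Fgfr2 side, where the other libraries had at most 0.790 CPM. When cells took their class from their cluster, that value became 1.12 CPM and the PDGFRαhi levels were 53.3 and 110.5 CPM.

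**Figure D2:**
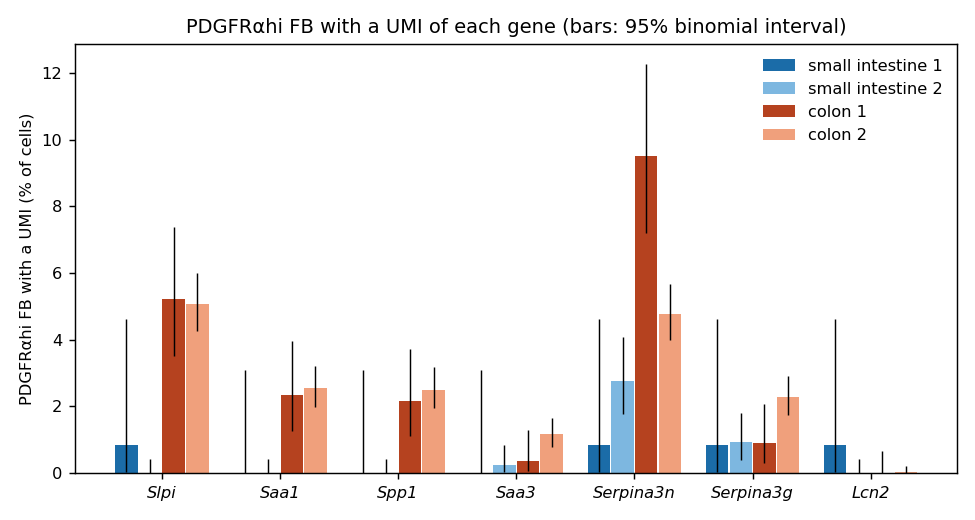
Share of PDGFRαhi FB with at least 1 UMI of each gene (y axis, percent of cells) in the 4 libraries (colours), with exact 95% binomial intervals as bars. *Slpi*, *Saa1* and *Spp1* were found in 2.15% to 5.21% of cells in both colonic libraries and in at most 0.847% in small intestine, while *Serpina3n* had its highest share in colon 1.

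Some markers of other cells were higher in the colonic PDGFRαhi sums and others lower. The 6 plasma cell markers summed to 44.7 and 21.4 CPM in small intestine (5 and 3 of 6 with a UMI) and to 3.43 and 11.98 CPM in colon (3 and 5 of 6), with *Mzb1* at 0 in all but small intestine 1. The 6 macrophage markers summed to 80.3 and 41.8 CPM in small intestine and 21.9 and 8.57 CPM in colon, so both lists were lower in the colon. The 7 epithelial markers overlapped, at 1.83 and 6.97 CPM in small intestine and 5.72 and 4.52 CPM in colon, with *Epcam* at 0 in small intestine 1 and *Cdh1* at 0 in all but colon 2. The 5 neutrophil markers overlapped too, at 0 and 5.48 CPM in small intestine and 0.490 and 5.62 CPM in colon. The summed markers of lymphoid tissue stroma were higher in the colon, at 15.5 and 29.9 CPM against 136 and 124 CPM, with *Bst1* at 0 in all 4 sums. *Madcam1* was at 0 too in both small intestinal sums and in colon 1, so the chemokine *Cxcl13* alone made up those sums. Low sums of mesothelial markers (0 and 0.498 against 6.37 and 5.71 CPM, from *Upk1b* alone in colon 1) and of endothelial markers (0.913 and 1.99 against 3.27 and 3.13 CPM) were also higher in the colon. Their part in the levels of *Slpi*, *Saa1* and *Spp1* was not tested.

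Outside the fibroblasts *Slpi* was found mainly in plasma cells. In small intestine 1 the 58 plasma cells held 1154 of the 1177 *Slpi* UMIs (728 CPM), and 42 of them had a UMI. In the other libraries plasma cells were scarce, and their *Slpi* rested on 3 of 24 cells in small intestine 2 (346 CPM) and on 1 of 19 cells in colon 2 (325 CPM). The 3 plasma cells of colon 1 held 4 *Slpi* UMIs. Plasma cells were to be removed by the CD45 gate, so their number says nothing of the tissue. In small intestine 1, with most plasma cell *Slpi* RNA, 5 of 360 CD81+ FB had a *Slpi* UMI (1.39%), each with 1 UMI.

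The serine protease inhibitors were the most widespread of the 7 genes. *Serpina3n* stood at 759, 363, 561 and 233 CPM on the Igfbp5 and CD90 side (small intestine 1 and 2, then colon 1 and 2), at 506, 226, 635 and 247 CPM on the Fgfr2 side, and at 447, 234, 261 and 104 CPM in CD81+ FB. These 3 classes overlapped. SMC followed at 82.7, 57.8, 18.3 and 26.5 CPM and PDGFRαhi FB at 0.913, 15.9, 23.5 and 15.9 CPM, and these 2 overlapped each other but lay below every library of the former 3. In CD81+ FB and both PDGFRαlo sides replicate 1 stood above replicate 2 in both intestines. The shares of CD81+ FB with a UMI were 80.0% (small intestine 1), 41.5% (small intestine 2), 56.6% (colon 1) and 23.2% (colon 2), and after thinning 35.0%, 18.1%, 23.0% and 9.001%.

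The intestines overlapped for *Serpina3n* in CD81+ FB and in both PDGFRαlo sides. In CD81+ FB both same-numbered pairs of libraries were lower in the colon, by log2 differences of -0.76 and -1.14, and with the class taken from the cluster the levels were 397 and 226 CPM against 114 and 73.1 CPM, which did not overlap. In SMC both small intestinal sums were higher (3.02-fold, 2.25 to 4.03), at -1.46 ± 0.46 on the log2(CPM + 5) scale for colon minus small intestine. With the class taken from the cluster the SMC levels were 127 and 149 CPM against 14.4 and 23.9 CPM. In the SMC sums of the marker gate the 7 endothelial markers stood at 77.1 and 5.78 CPM in small intestine and 1.70 and 3.22 CPM in colon, and the 6 macrophage markers at 63.9 and 24.6 CPM and 3.40 and 13.6 CPM. The 6 general fibroblast markers overlapped, at 6306 and 10820 CPM in small intestine and 4764 and 6901 CPM in colon. Markers of single FB classes were higher in the small intestinal SMC sums, with *Adamdec1* of the Fgfr2 side at 6734 and 5979 CPM against 975 and 1152 CPM and *Clec3b* of CD81+ FB at 359 and 640 CPM against 26.8 and 86.5 CPM. The part of these markers in the SMC levels of *Serpina3n*, and of *Serpina3g* below, was not tested. Endothelial cells themselves held 1.29 CPM of *Serpina3n* in small intestine 1 and 4.84 CPM in colon 1.

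*Serpina3g* was highest on the Fgfr2 side, at 137, 85.3, 92.9 and 128 CPM, where the intestines overlapped. The Igfbp5 and CD90 side had 130 and 70.3 CPM in small intestine and 43.6 and 64.3 CPM in colon, a difference of 1.34-fold (1.18 to 1.52) with adjacent values of 70.3 and 64.3. CD81+ FB had 58.2, 34.2, 42.3 and 22.6 CPM. In SMC it stood at 13.2 and 24.6 CPM in small intestine and 0 and 5.005 CPM in colon (7.21-fold, 3.58 to 15.1), on 24 and 14 UMIs. In PDGFRαhi FB the intestines overlapped, with 0.913, 4.48, 1.31 and 13.3 CPM.

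The serpins of the same cluster were scarcer. Over FB and SMC together *Serpina3f* stood at 7.42, 6.92, 2.02 and 2.15 CPM and *Serpina3i* at 5.91, 2.58, 0.830 and 0.524 CPM, with the colon below the small intestine for both. *Serpina3a*, *Serpina3b*, *Serpina3j* and *Serpina3k* had 0 UMIs in all 4 libraries. Of the 50-base words of *Serpina3g*, 16.0% occur in another gene, and of the last 500 bases 2.44% do. For *Serpina3n* these shares were 6.90% and 0. Within cells the pair was only weakly linked: in thinned cells of 11 library and class sums of CD81+ and PDGFRαlo FB, cells with both were 0.909 to 3.03 times as many as the product of the shares gives, and the Spearman correlation over cells was at most 0.121.

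*Lcn2* was close to absent from fibroblasts and SMC and marked a group of endothelial cells. None of the 5 FB and SMC classes held more than 5 *Lcn2* UMIs in any library. In endothelial cells it stood at 619 CPM (958 UMIs) in small intestine 1 and 321 CPM (398 UMIs) in colon 1, while the second replicates had 2 and 23 such cells. These cells held 98.8% and 98.0% of all *Lcn2* UMIs of the 2 libraries. A UMI was found in 88 of 345 endothelial cells in small intestine 1 (25.5%) and 56 of 229 in colon 1 (24.5%), and after thinning in 20.3% and 15.3%. In CD81+ FB of the same libraries it was 1 of 360 cells (0.278%) and 0 of 256, at median depths of 8901 and 7978 UMIs against 4409 and 5053 in endothelial cells.

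The endothelial cells with *Lcn2* carried lymphatic endothelial genes, which were chosen after their values were seen. *Lyve1*, a hyaluronan receptor of lymphatics, was found in 95.5% of cells with *Lcn2* and 3.50% of those without in small intestine 1, and in 98.2% and 2.31% in colon 1. *Prox1*, the transcription factor of lymphatic identity, was found in 77.3% against 5.06% and in 80.4% against 2.89%. *Mmrn1* was found in 96.6% against 3.89% and in 100% against 2.31%. *Plvap*, a gene of fenestrated blood vessels, went the other way, with 7.95% against 95.3% and 32.1% against 97.1%. *Icam1*, an adhesion molecule, did not go the same way in both libraries, at 2062 against 896 CPM in small intestine 1 and 209 against 361 CPM in colon 1. The 5 neutrophil markers, of a cell type rich in lipocalin-2, were all at 0 in both endothelial sums.

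**Figure D3:**
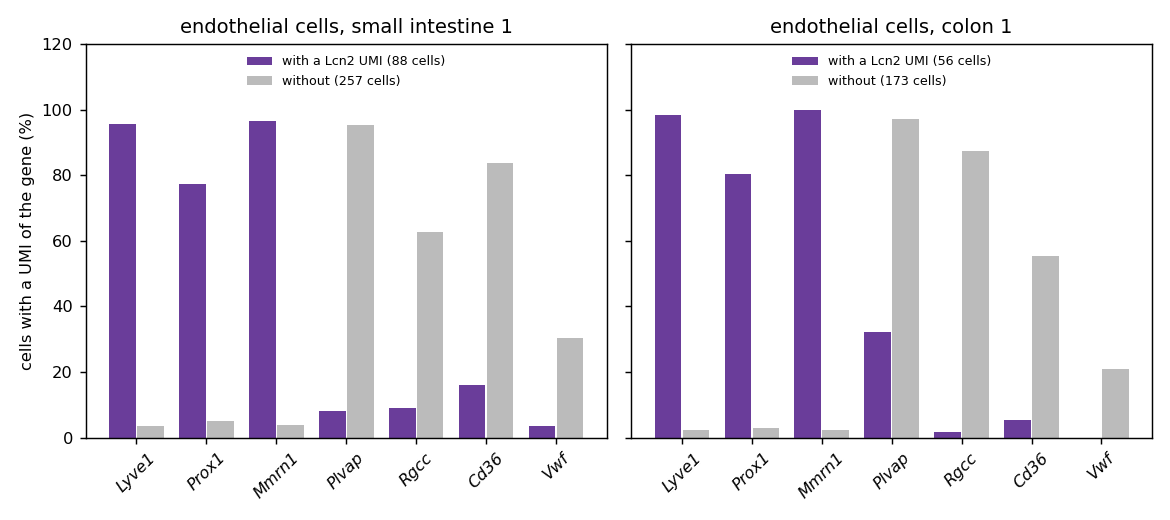
Share of endothelial cells (y axis, percent) with a UMI of 7 vessel genes (x axis) among cells with (purple) and without (grey) a *Lcn2* UMI, in the 2 libraries with over 200 endothelial cells. *Lyve1*, *Prox1* and *Mmrn1* were found in 77.3% to 100% of cells with *Lcn2* and in at most 5.06% of the others, and *Plvap* showed the reverse.

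*Spp1* was near absent from the small intestine and concentrated in colonic PDGFRαhi FB. It had 0 UMIs in PDGFRαhi FB of small intestine 1 and 0 in small intestine 2, against 195 UMIs (31.9 CPM) in colon 1 and 1037 UMIs (95.6 CPM) in colon 2. The pooled colonic level was at least 75.1-fold higher against the floor of 3 UMIs over the small intestinal group. Colon 2 held 1037 of the 1232 colonic UMIs, so the bound is lower for colon 1 alone. On the log2(CPM + 5) scale the colon was higher by 3.61 ± 1.02. Over all kept cells the small intestinal libraries held 2 and 4 *Spp1* UMIs. The next class was the Fgfr2 side of colon 2 at 8.74 CPM, which fell to 0.305 CPM when cells took their class from their cluster. No other FB or SMC sum passed 0.715 CPM.

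*Spp1* rested on a small share of rich cells. It was found in 12 of 557 PDGFRαhi FB in colon 1 (2.15%) and 65 of 2601 in colon 2 (2.50%), or in 0.898% and 1.35% after thinning, with 16.3 and 16.0 UMIs in each positive cell. In CD81+ FB of colon 2 it was 0.270%, and 0 after thinning. The richest 1% of the PDGFRαhi cells held 91.3% and 93.7% of the *Spp1* UMIs, and in colon 2 a single cell held 375 of the 1037. *Dmp1*, which starts at -232.5 kb from the start of *Spp1* in the gene cluster of bone and tooth phosphoproteins, had a like pattern, with 0, 0.498, 59.7 and 130.5 CPM in PDGFRαhi FB. *Ibsp*, *Mepe* and *Dspp* of the same cluster had at most 1 UMI in any library.

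*Slpi*, *Spp1* and *Saa1* were compared within colonic PDGFRαhi FB. In thinned cells of colon 2, 74 had *Slpi* and 35 had *Spp1*, and 13 had both where the product of the shares gives 0.996, with a Spearman correlation over cells of 0.243. Thus 37.1% of the *Spp1* cells also had *Slpi*. No thinned cell had *Saa1* with *Slpi* or with *Spp1*, where the products give 0.711 and 0.336 cells, too few to tell. In unthinned cells *Slpi* was higher in cells with *Saa1* than in those without, at 638 against 35.8 CPM in colon 1 and 341 against 96.8 CPM in colon 2. The reverse split did not go the same way in both libraries. *Saa1* stood at 4.77 CPM in *Slpi* cells and 13.2 CPM in the rest in colon 1, but at 52.4 and 26.9 CPM in colon 2. With so little *Saa1* in the *Slpi* cells of colon 1, the 638 CPM there rested on very few of the 13 *Saa1* cells. The 30 colonic cells with *Saa3* in colon 2 also had more *Saa1* (339 against 23.6 CPM), *Slpi* (521 against 99.0 CPM) and *Spp1* (398 against 90.7 CPM). The chemokine *Cxcl10* was also higher in *Saa1* cells, at 487 against 118 CPM and 1447 against 525 CPM.

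Colonic PDGFRαhi FB with a *Slpi* UMI differed from the others in growth factor and contractile genes, in the same direction in both libraries. Cells with *Slpi* were deeper, with medians of 14937 against 10456.5 UMIs in colon 1 and 5403.5 against 3905 in colon 2. *Spp1* stood at 289 CPM in cells with *Slpi* and 12.98 CPM in cells without in colon 1, and at 1143 and 20.6 CPM in colon 2. The cell richest in *Spp1* in colon 2 was among those with *Slpi* and carried a large part of that level. *Il1rl1*, the receptor of interleukin-33, stood at 1201 against 90.0 CPM and 436 against 82.1 CPM. *Fgf7*, a growth factor for epithelium, stood at 1540 against 153 CPM and 634 against 128 CPM, and *Nrg1*, a ligand of ErbB receptors, at 1141 against 209 CPM and 1267 against 380 CPM.

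Other genes were lower in the *Slpi* cells. *Thbd*, which encodes the thrombin receptor CD141, stood at 62.1 against 1077 CPM in colon 1 and 30.4 against 449 CPM in colon 2. *Acta2*, smooth muscle actin, stood at 205 against 3434 CPM and 331 against 1575 CPM, and the chemokine *Cxcl12* at 430 against 3702 CPM and 155 against 1260 CPM. The class markers *Foxl1* and *Pdgfra* were close in cells with and without *Slpi* (*Pdgfra* 1198 and 989 CPM in colon 1, 755 and 708 CPM in colon 2). *Ptgs2*, the inducible cyclooxygenase, was higher in *Slpi* cells at 1578 against 531 CPM and 1386 against 556 CPM. The companion genes were chosen with earlier results of these data known, and cells of a library are not replicates.

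**Figure D4:**
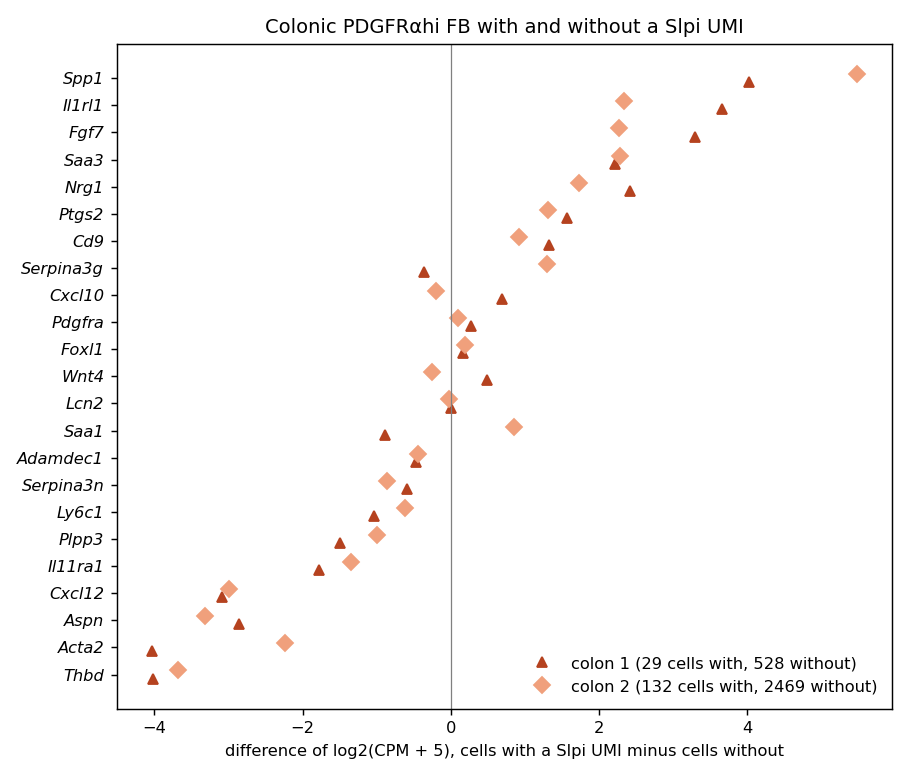
Difference in level (x axis, log2(CPM + 5)) of 23 genes (y axis) between colonic PDGFRαhi FB with and without a *Slpi* UMI, in colon 1 (triangles) and colon 2 (diamonds). *Spp1*, *Il1rl1*, *Fgf7* and *Nrg1* lay to the right in both libraries, *Thbd*, *Acta2*, *Aspn* and *Cxcl12* to the left, and *Foxl1* and *Pdgfra* near 0.

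The genes with the most similar pattern were sought over 20 points, the 4 libraries in 5 classes, by Pearson correlation of log2(CPM + 5) among 9317 genes (9318 for *Lcn2*). For *Slpi* they were *Spp1* (r = 0.974), *Dmp1* (0.970) and *Kctd8* (0.959), for *Spp1* they were *Dmp1* (0.977), *Slpi* (0.974) and *Slco4a1* (0.966), and for *Saa1* they were *Paqr5* (0.965), *Cd300e* (0.959) and *Slpi* (0.957). *Serpina3n* was followed by *Agtr1a* (0.944), *Fzd1* (0.944) and *C1qtnf3* (0.940), and *Serpina3g* by *Nrp1* (0.936), *Asb4* (0.915) and *Serpina3n* (0.912). *Saa3* had no close companion, with *Sowahc* (0.782), *Pfkfb3* (0.765) and *Npm1* (0.741). *Lcn2*, with at most 5 UMIs in a sum, had *Sgk3* (0.637), *Osgep* (0.605) and *Epb41l1* (0.582). Points of a library share its depth and points of a class its cells, so the coefficients describe these sums only.

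Related genes were tested between colon and small intestine on UMIs summed by library and class, with edgeR's quasi-likelihood test. A gene was called where its log2 fold change passed 1.5 in either direction and its p after Benjamini-Hochberg adjustment fell below 0.05. Of all genes tested, 0.649% were called higher and 0.667% lower in colonic PDGFRαhi FB, 0.147% higher and 0.233% lower in CD81+ FB, 0.425% higher and 0.305% lower in PDGFRαlo FB, and 0.0804% higher and 0.111% lower in SMC. Of the 7 genes themselves, 5 passed the filter on low counts in PDGFRαhi FB, 3 in CD81+ FB, 4 in PDGFRαlo FB and 2 in SMC, and 1, *Slpi* in PDGFRαhi FB, was called. DESeq2 called 3, 1, 0 and 0 of the 7, and of all genes tested 4.27%, 2.08%, 3.25% and 1.63% in the same class order. Nothing is read from these calls, since the contrast chose the genes. Without either small intestinal replicate no member was called there.

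Acute-phase, serpin, WAP and antimicrobial relatives numbered 47, of which 12, 15, 19 and 9 were tested in PDGFRαhi, CD81+ and PDGFRαlo FB and SMC. *C4b*, which encodes complement component C4, was the 1 called, and was lower in the colon in 2 classes. In CD81+ FB it stood at 1495 and 1352 CPM in small intestine and 171 and 124.7 CPM in colon, a log2 fold change of -3.41 (SE 0.32, edgeR adjusted p = 0.0420). That call was lost without small intestine replicate 2 (adjusted p = 0.0612, range over alternatives 2.87e-20 to 0.0612). In SMC it stood at 342 and 442 CPM against 19.6 and 26.8 CPM (log2 fold change -4.01, SE 0.36, edgeR adjusted p = 0.0333). The FB markers *Adamdec1* (6734 and 5979 against 975 and 1152 CPM) and *Clec3b* (359 and 640 against 26.8 and 86.5 CPM) were higher in the same small intestinal SMC sums, and their part in the *C4b* difference was not tested. At an unadjusted edgeR p under 0.05 the relatives numbered 5, 8, 9 and 4, where 12.4%, 8.87%, 10.8% and 8.66% of all genes tested passed. DESeq2 called 4, 5, 3 and 2 relatives, and of all genes tested 4.27%, 2.08%, 3.25% and 1.63%. Median log2 fold changes of the relatives were 0.70, -0.87, -0.56 and -1.67, against 0.0048, -0.0079, 0.0086 and 0.014 over all genes tested. *C3*, the central complement component, was not called, at 3704, 3321, 1143 and 1316 CPM in CD81+ FB.

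The interferon gamma response list held 19 genes, of which 19, 19, 19 and 18 were tested. Its medians were -0.91, -1.56, -1.19 and -1.68, lower in the colon in every class, but edgeR called 0 genes in PDGFRαhi FB, 1 in CD81+ FB, 0 in PDGFRαlo FB and 1 in SMC. *Iigp1*, an interferon-induced GTPase, stood at 344 and 285 CPM in small intestinal CD81+ FB and 47.2 and 54.7 CPM in the colonic ones (log2 fold change -2.76, SE 0.30, edgeR adjusted p = 0.0459). The *Iigp1* call was lost without small intestine replicate 2 and with doublets kept (edgeR adjusted p = 0.0514), while DESeq2 gave an adjusted p of 5.22e-12. In these CD81+ sums the 6 plasma cell markers stood at 38.05 and 19.25 CPM in small intestine against 6.325 and 8.36 CPM in colon. The lymphoid tissue stroma markers were also higher in small intestine, as given for *Saa3*, and the macrophage markers overlapped. Their part in the CD81+ differences of *Iigp1* and *C4b* was not tested. *Cxcl9* in SMC stood at 528 and 267 CPM against 2.55 and 1.43 CPM (log2 fold change -7.56, SE 0.60, edgeR adjusted p = 0.0333), and did not pass the filter when cells took their class from their cluster. In those SMC sums *Adamdec1* and *Clec3b* were higher in small intestine as given for *C4b*, the 6 macrophage markers stood at 63.9 and 24.6 CPM against 3.40 and 13.6 CPM, and their part in the *Cxcl9* difference was not tested. At an unadjusted edgeR p under 0.05 the counts were 10, 14, 10 and 14, where 12.4%, 8.87%, 10.8% and 8.66% of all genes tested passed. DESeq2 called 4, 7, 4 and 7, and of all genes tested 4.27%, 2.08%, 3.25% and 1.63%. With a replicate block in edgeR the calls were 6, 10, 4 and 10, all lower in the colon. That setting raised the calls over all genes as well, as given at the end.

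Receptors and mediators of interleukin-1, interleukin-6 and tumour necrosis factor (27 listed, 25 to 26 tested) gave 0 calls in all 4 classes with edgeR, 7, 4, 4 and 9 at an unadjusted p under 0.05, and 3, 0, 0 and 7 with DESeq2. Their medians were 0.20, -0.46, -0.22 and -0.76. Receptors, partners and target proteases of the 7 proteins (19 listed, 13 to 14 tested) gave 0 calls with edgeR, 4, 0, 5 and 1 at an unadjusted p under 0.05, and 2, 0, 2 and 0 with DESeq2. Their medians were 0.30, -0.20, 0.14 and 0.20. Of all genes tested, 12.4%, 8.87%, 10.8% and 8.66% passed the unadjusted threshold with edgeR. DESeq2 called 4.27%, 2.08%, 3.25% and 1.63% of all genes tested.

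**Figure D5:**
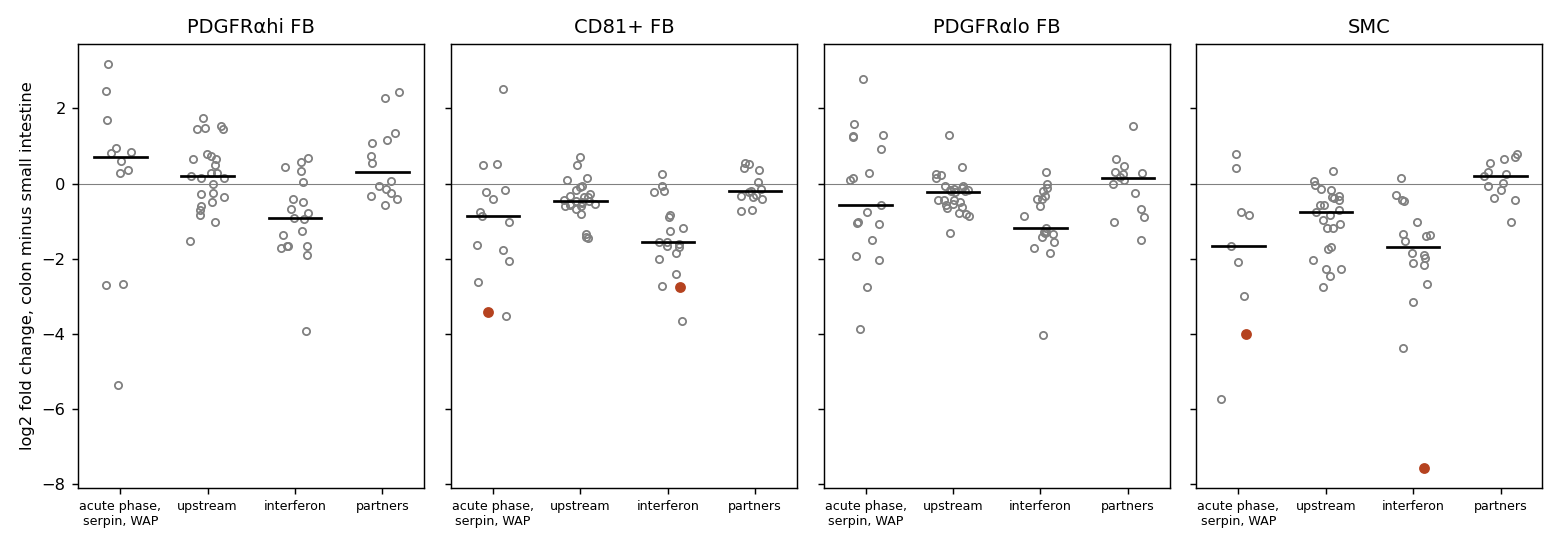
Log2 fold change of colon against small intestine (y axis, edgeR) for each tested gene of 4 related lists (x axis) in 4 cell classes (panels), with black lines at the medians and filled red points for called genes. The median of the interferon list lay below 0 in every panel, between -0.91 and -1.68, and the 4 called points are *C4b* and *Iigp1* in CD81+ FB and *C4b* and *Cxcl9* in SMC.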

How the data were processed

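Single-cell UMI counts per gene and barcode were deposited by the authors for 4 10x Genomics libraries, 2 each of small intestine and colon. Per the file headers they come from Cell Ranger 3.0.2 (replicate 1) and 3.1.0 (replicate 2), and the submitters' processing notes name Cell Ranger 3.0.2, Seurat 3 and mm10. Whether a library used the 3′ or the 5′ kit is not given in the sources used here. Barcodes under 500 genes or under 1000 UMIs, or over 10% mitochondrial UMIs, were dropped, and doublets were removed (scrublet in scanpy 1.11.5, score above 0.2). Each cell was gated by its score over marker lists (at least 0.1, leading by 0.05, with 2 markers detected; for other than fibroblasts 0.25 and 3 markers). The scoring rule was set after the data were seen. UMIs were summed by library and class and given as CPM. A log2 ratio is the difference of mean log2(CPM + 5), with the SD from the summed variances of both intestines. Libraries pool mice, so p-values measure the spread between 2 libraries. Genes were tested over those sums with edgeR 4.0.16 (quasi-likelihood, Benjamini-Hochberg) in R 4.3.3, with DESeq2 1.42.0 as an alternative, beside RLE normalization, no low-count filter, a replicate block, a cluster gate, doublets kept, a minimum of 1000 genes and each library left out. List genes were named, up to 8 a list, if called, moving alike in both pairs of equal number and holding 50 UMIs or more in both libraries of the intestine where they were higher. The 7 genes and all lists were chosen with earlier results of these data known. The test was also run on simulated counts with 200 genes changed 8-fold, all above the median level. It recovered 100% in PDGFRαhi, CD81+ and PDGFRαlo FB and 99.5% in SMC. The simulation used the same fixed spread for every gene and no replicate effect. Its recovery therefore checks the procedure and does not measure the power of the test in these libraries.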

Additional observations from a re-analysis of the deposited data

Results flagged for a closer look

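*Saa3* moved in opposite directions between the intestines in 2 fibroblast classes. Its log2 ratio of colon to small intestine was 1.21 ± 1.39 in the PDGFRαhi class but -2.87 ± 0.47 in CD81+ FB, and within each class both same-numbered pairs of libraries went the same way. The SD of the PDGFRαhi ratio exceeded the ratio. With the class taken from the cluster the intestines overlapped there (0 and 1.66 CPM against 1.43 and 36.0 CPM). The difference between the classes was not tested.

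*Serpina3n* had a log2 ratio of 1.14 ± 1.33 in PDGFRαhi FB and -1.46 ± 0.46 in SMC. In PDGFRαhi FB the ratio rested on the first pair (2.27), where small intestine 1 held 1 UMI, since the second pair differed by 0.00049. The FB markers that were higher in the small intestinal SMC sums, given above, apply to the SMC ratio too. The difference between the classes was not tested.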

How the results depend on the processing

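The number of genes called between colon and small intestine moved most with the processing. In PDGFRαhi FB it was 150, against 486 with DESeq2, 636 with no low-count filter, 882 with the replicate block and 0 to 507 when 1 library was left out (0 without either small intestinal library). In CD81+ FB it was 44, against 241, 423 and 453 in that order, 103 with the cluster gate and 12 to 142 when 1 library was left out. In PDGFRαlo FB it was 91, against 405, 275 and 694, 51 with doublets kept and 0 to 224 when 1 library was left out. In SMC it was 19, against 162, 343 and 518, 54 with the cluster gate, 12 with doublets kept, 12 with a minimum of 1000 genes and 18 to 223 when 1 library was left out. A library left alone in its intestine was assumed to vary like the others. Deviations of same-numbered libraries correlated at 0.694, 0.663, 0.758 and 0.655 in the 4 classes, but the labels do not say what a number shares. Of 378 log2 ratios of the 7 genes recomputed, 348 moved by less than 1 SD and 30 by more, 26 of these with a pseudocount of 1 or 20. Of 140 shares of cells, 71 moved outside their 95% interval when cells were thinned to 1000 UMIs. The ratio in PDGFRαhi FB ranged from 2.24 to 5.80 for *Slpi*, 1.95 to 5.82 for *Spp1*, 0.99 to 4.32 for *Saa1* and 0.24 to 2.35 for *Saa3*, and that of *Saa3* in CD81+ FB from -4.72 to -1.42. On the Fgfr2 side *Slpi* went from 1.23 to -0.17 without colon replicate 2. The class with the highest level stayed the same under the cluster gate in 24 of 28 pairs of gene and library. Thin cell numbers limit small intestine 1, where 0 of 118 PDGFRαhi FB allows a share of up to 2.54%.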

Other observations

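A pair of genes of the related lists is given from PDGFRαhi FB, picked after their values were seen, and neither was called. Their levels did not overlap between the intestines, but how many other genes did likewise was not counted. The edgeR p before adjustment fell below 0.05 in 7 of 25 tested receptors and mediators and 4 of 14 tested partners. Of all genes tested in this class, 12.4% did so. *Cd44*, a receptor of osteopontin, stood at 50.2 and 88.2 CPM in small intestine and 277 and 341 CPM in colon (log2 fold change 2.29, edgeR adjusted p = 0.0803). *Socs3*, a feedback inhibitor of STAT3 signalling, stood at 680 and 906 CPM against 2218 and 1997 CPM (1.54, edgeR adjusted p = 0.0996).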
